A study of Homo sapiens with 90 samples.

Results

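The ERBB receptors and their ligands were followed as transcripts in 6 established human cancer cell lines exposed to a targeted drug, to THZ1, to both together or to vehicle. The 10 genes are 3 receptors (EGFR, ERBB2 and ERBB3), 6 ligands (AREG, EREG, TGFA, HBEGF, BTC and NRG1) and the receptor inhibitor ERRFI1. They were taken by name from a table of expected counts that holds 53893 gene identifiers, and each symbol matched 1 identifier. There were 90 libraries, 3 for each of 5 arms in each line. In the combination arm the cells received the targeted drug of their line together with THZ1 for 48 h. The targeted drug alone was given for 7 days or for 48 h, as vemurafenib at 1 uM in A375, GSK1120212 (trametinib) at 200 nM in A549, crizotinib at 250 nM in H3122, lapatinib at 100 nM in N87, erlotinib at 1 uM in PC9 and BGJ398 at 1 uM in RT112. THZ1 alone was given for 48 h at 50 nM in A375 and H3122, 150 nM in A549, 25 nM in N87, and 100 nM in PC9 and RT112. The remaining arm received 0.1% DMSO for 48 h. A 7-day vehicle arm is not among the samples, so the effects of 7 days of drug and of 7 days in culture cannot be told apart. The labels do not say that the 3 libraries of an arm came from separate cultures, so p-values measure the spread between these libraries, which may be technical.

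EGFR, ERBB2 and ERBB3 are receptor tyrosine kinases that signal as pairs through RAS, RAF, MEK and ERK and through PI3 kinase. EGFR binds AREG, EREG, TGFA, HBEGF and BTC, ERBB3 binds NRG1 and has little kinase activity of its own, and ERBB2 binds no known ligand and serves as the preferred partner of the others. The ligands are made as membrane proteins that ADAM proteases release, several of the ligand genes are raised by ERK signalling, and ERRFI1 (MIG6) binds the kinase domain of the receptors and blocks it. Vemurafenib inhibits mutant BRAF, trametinib MEK, crizotinib ALK and MET, and BGJ398 the FGF receptors. Erlotinib inhibits EGFR and lapatinib inhibits EGFR and ERBB2, so in PC9 and N87 the drug acts on products of the genes described. THZ1 is a covalent inhibitor of CDK7 and related kinases that drive transcription. A375 is a melanoma line, A549, H3122 and PC9 are lung adenocarcinoma lines, N87 is a gastric carcinoma line with amplified ERBB2, and RT112 is a bladder carcinoma line. Each tumour type is represented by 1 line or by lines with different drugs, so a difference between lines is also a difference between drugs.

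Between 5.64 and 14.36 M expected counts were summed in a library (median 11 M). Levels are given in CPM, counts scaled to 1 M per library after TMM scaling over all 90 libraries, which is a level relative to the other transcripts of the library, since no spike-in is described. Melanocyte markers were at 1 CPM or more for 6 of 7 genes in A375, and TYR was under 0.1 CPM. They reached that level for 2 of 7 genes in each other line. Lung markers reached it for 3 of 5 genes in H3122 but for 0 of 5 in A549, PC9 and the other lines. Urothelial markers reached it for 4 of 5 genes in RT112, but also for 4 in N87 and 3 in PC9. Gastric markers reached it for 1 of 5 genes in N87, against 3 in RT112, 2 in A549 and H3122 and 1 in A375 and PC9, so these lists did not set N87 or RT112 apart from the other lines. General epithelial markers reached it for 4 of 4 genes in every line but A375, which had 2, and blood cell markers for at most 1 of 5, CD14 at a mean of 1.4 CPM in PC9. Fibroblast and endothelial markers reached it for 1 or 2 of the 4 genes found in the table, with COL1A1 highest in every line but A375. A vemurafenib library of A375 carries lung as its tissue label. In earlier work on these data 5 libraries stood apart from the others of their group, replicate 1 of the combination, 7-day BGJ398, 48 h BGJ398 and DMSO arms of RT112 and replicate 1 of the 7-day crizotinib arm of H3122. The chi-square per gene between libraries of a group reached 27.3 in pairs that include 1 of these libraries and 9.54 in the other pairs. The RT112 combination library did not stand apart on this measure, at 3.86 and 5.58 against the other libraries of its group. Member calls in RT112 and H3122 that changed without these 5 libraries, in comparisons of 1 arm with another, are given with and without them. Leaving them out keeps 2 libraries in each of those arms. Because these libraries were picked for standing apart in these same data, leaving them out can narrow the spread. P-values without them are therefore not comparable with those from all libraries.

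In DMSO the members differed between lines over wide ranges, and no line was highest for all of them. Neighbours in the order of lines were compared in an edgeR fit of all 90 libraries with p-values adjusted over 19655 genes, and 31 of 50 neighbouring pairs differed. The share of such pairs over all genes is not given, and the order was set by these same means. The count therefore only describes the members. EGFR was highest in PC9 at 774 ± 14.1 CPM (mean ± SD, n = 3 libraries here and for the other means), followed by N87, RT112, A549, H3122 and A375 at 20.1 ± 1.42 CPM. RT112 and A549 did not differ in EGFR beyond their spread. ERBB2 reached 17138 ± 561 CPM in N87, and the next line, RT112, had 209.8 ± 12.5 CPM. PC9, A549, A375 and H3122 followed with means down to 111 ± 0.400 CPM in H3122, and none of these 4 lines differed from the next. A549 and A375 changed places in that order when CPM were taken without TMM scaling. ERBB3 was highest in A375 at 534 ± 6.86 CPM and lowest in A549 at 114 ± 2.87 CPM, with H3122, RT112, PC9 and N87 between them. PC9 and N87 did not differ in ERBB3, and RT112 and PC9, too, changed places without TMM scaling.

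The ligands were distributed otherwise. AREG was highest in A549 at 57.6 ± 8.36 CPM, followed by H3122, RT112, N87 and PC9, none of which differed from the next, and lowest in A375 at 1.29 ± 1.19 CPM. EREG was highest in A549 at 116 ± 13.4 CPM, followed by N87 and H3122, which did not differ from each other, by PC9 at 2.69 ± 1.23 CPM, and by A375 and RT112, where it was too low to be tested within the line. TGFA was highest in A375 at 419 ± 4.50 CPM, and every step down the order through N87, H3122, PC9 and RT112 to A549 at 1.19 ± 0.331 CPM was a difference. HBEGF was highest in RT112 at 111 ± 40.3 CPM, with replicate 1 above the other libraries, followed by PC9 and N87, and A375, A549 and H3122 at the low end did not differ from the next. BTC was low throughout, with H3122 at 6.71 ± 0.178 CPM and PC9 not different from it, then N87 and A549, and with A375 and RT112 at the low end at 0.494 ± 0.218 and 0.290 ± 0.0911 CPM and not different from each other. NRG1 was at 32.9 ± 1.00 CPM in A549 and at under 3 CPM on average in the other 5 lines, in the order RT112, N87, H3122, A375 and PC9. RT112, N87 and H3122 did not differ from the next, and A375 was above PC9 by a log2 difference of 0.77 (adjusted p = 0.0334). The inhibitor ERRFI1 was highest in A549 at 628 ± 16.3 CPM and lowest in N87 at 40.5 ± 1.5 CPM, and between them H3122 and A375 did not differ, nor did RT112 and PC9.

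**Figure D1:**
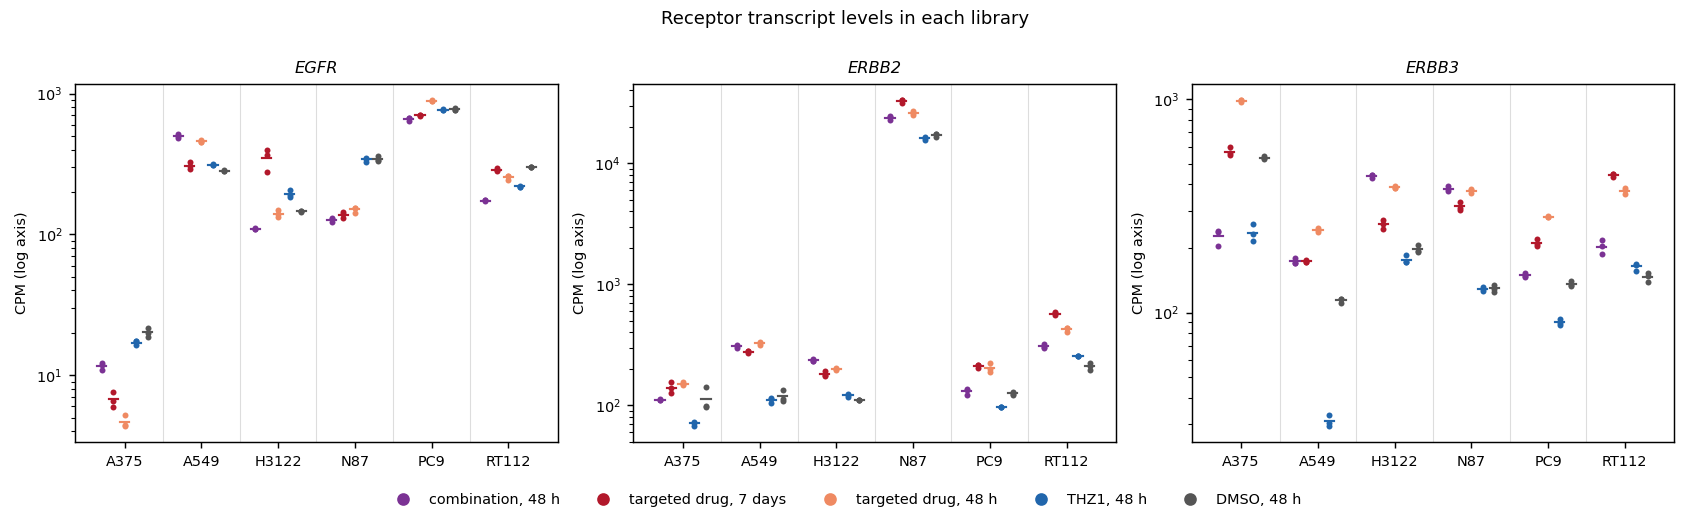
CPM (log axis) of EGFR, ERBB2 and ERBB3 in each of the 90 libraries, by line and arm, with points for libraries and a bar for the mean of 3. ERBB2 in N87 lies at 15658 CPM or more in every library while all other lines stay at or under 585 CPM, and the ERBB3 points under the targeted drug at 48 h lie above those under DMSO in all 6 lines.

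Levels of different genes were compared per kilobase of the longest GENCODE v29 transcript, scaled to a sum of 1 M within each library. On this scale ERBB2 had a level of 9104 in N87 in DMSO, against 91.8 for EGFR and 57.5 for ERBB3 in the same line. With the median transcript length ERBB3 at 213 came before EGFR at 145 in N87. EGFR led the receptors in PC9 at 225 and ERBB3 led them in A375 at 270.4. Of the summed length-scaled level of the 6 ligands in DMSO, TGFA made up 95.3% in A375, 43.0% in H3122, 48.1% in N87 and 36.1% in PC9. With the median transcript length these shares of TGFA were 98.2% in A375, 69.3% in H3122, 71.9% in N87 and 63.3% in PC9. TGFA thus had the highest mean share in these 4 lines with either length, but by different margins. By the longest transcript HBEGF was at 35.5% in PC9 and AREG at 39.4% in H3122. The PC9 levels were 48.55 ± 1.23 for TGFA and 47.8 ± 22.9 for HBEGF, so their order there was not settled. By the longest transcript AREG made up 58.4% in A549 with EREG at 31.5%, while by the median length EREG came first at 49.3% with AREG at 33.1%. HBEGF made up 61.3% in RT112, and 52.5% with the median length. Under the targeted drug at 48 h the shares shifted. In A375 the share of TGFA was 39.7% under vemurafenib, against 95.3% under DMSO, and that of HBEGF was 50.7%, against 3.18%. With the median length TGFA stayed ahead of HBEGF under vemurafenib, at 64.6% against 98.2% under DMSO, and HBEGF was at 30.2%, against 1.2%. In PC9 the share of TGFA was 79.5% under erlotinib, against 36.1% under DMSO, while that of AREG was 1.17%, against 22.5%. With the median length TGFA was at 91.6% under erlotinib, against 63.3% under DMSO, and AREG at 0.33%, against 9.65%. The direction of these 4 shifts was the same with both lengths, but their sizes and the leading ligand of A375 under vemurafenib were not.

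**Figure D2:**
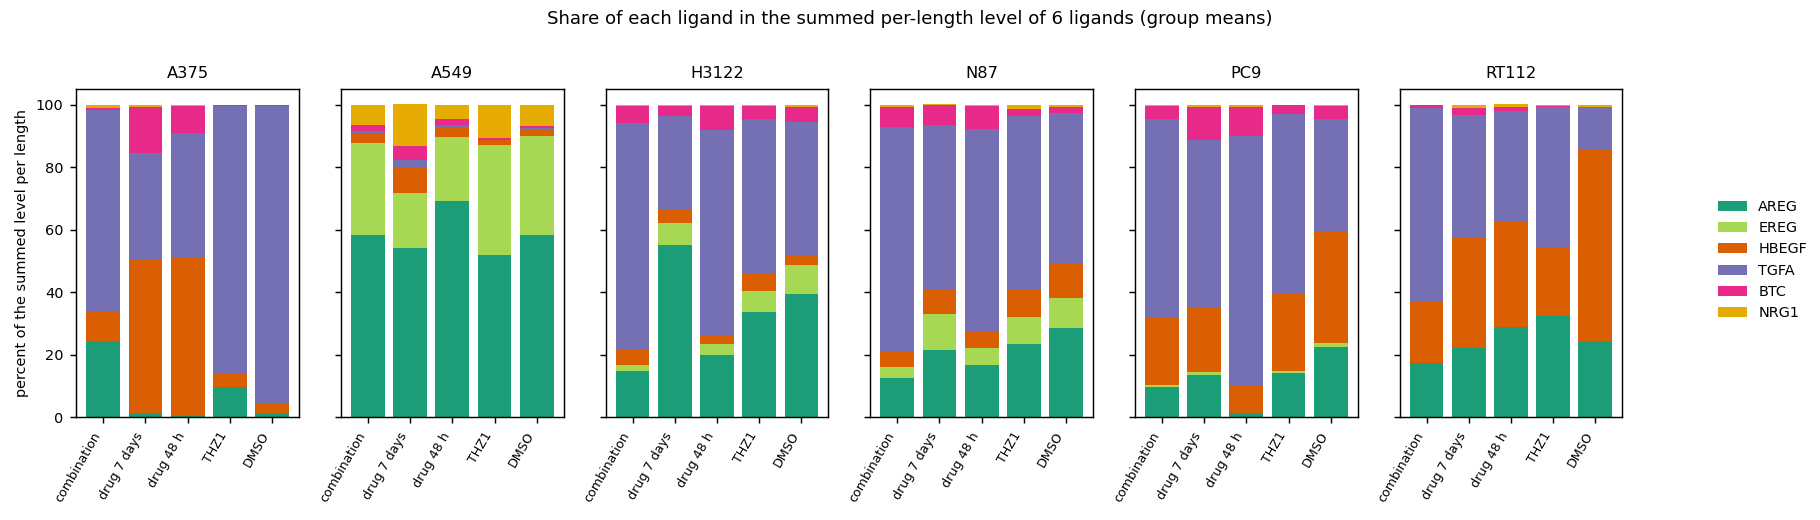
Percent of the summed length-scaled level (y axis) that each of 6 ligands makes up, by the longest transcript length, as stacked bars of group means for the 5 arms (x axis) of each line. TGFA fills 95.3% of the DMSO bar of A375 and 39.7% of its 48 h vemurafenib bar, and AREG with EREG fills most of every A549 bar.

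The targeted drug at 48 h was compared with DMSO to ask how the members change under it. Inhibition of the target kinase itself was not measured in these data. Among the receptors, ERBB2 and ERBB3 were higher in all 6 lines, while EGFR moved both ways. Among the ligands, AREG, EREG and NRG1 were mostly lower, BTC was higher in 4 lines, and TGFA and HBEGF differed by line. Within each line all 15 libraries were fitted with edgeR, changes are log2 fold changes ± an approximate SE, and genes count as called where p, adjusted by Benjamini-Hochberg over all genes tested in that line, was under 0.05. Of 58 tested pairs of a member and a line, 23 were called higher and 22 lower. Over all 91800 pairs of a gene and a line, 33.0% were called higher and 33.0% lower, so the share of members called was near that of all genes. In bulk RNA a change in every cell and a change in a part of the cells cannot be told apart. The receptors had 14 of 18 pairs higher and 3 lower, the ligands 9 of 34 higher and 16 lower, and ERRFI1 0 of 6 higher and 3 lower. Median log2 fold changes were 0.79 for receptor pairs and -0.59 for ligand pairs, beside 0.02 over all pairs.

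ERBB3, the NRG1 receptor, had 364, 374.96 and 381 CPM in the 3 lapatinib libraries of N87, against 125, 129.8 and 135 CPM in DMSO. All 3 lapatinib libraries lay above all 3 DMSO libraries, and the log2 fold change was 1.51 ± 0.04 (adjusted p = 1.07e-16). In RT112 ERBB3 had 361, 376 and 384 CPM under BGJ398, against 139, 149 and 153 CPM in DMSO, a log2 fold change of 1.29 ± 0.05 (adjusted p = 2.25e-12). In the other 4 lines the log2 fold change of ERBB3 ran from 0.89 in A375 to 1.07 in PC9. In none of the 6 lines did the groups overlap. The share of all genes whose groups do not overlap is not given, so here and below such statements only describe the libraries.

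ERBB2 had 316, 324 and 335 CPM under trametinib in A549, against 109, 113 and 134 CPM in DMSO, with a log2 fold change of 1.37 ± 0.06 (adjusted p = 9.57e-15). In RT112 it had 403, 435 and 438 CPM under BGJ398, against 197, 210.2 and 222 CPM in DMSO, with a log2 fold change of 0.97 ± 0.05 (adjusted p = 1.78e-11). N87, where ERBB2 was already the most abundant member, reached 24938, 26016 and 26820.0 CPM under lapatinib, against 16515, 17296 and 17603 CPM in DMSO. That was a log2 fold change of 0.59 ± 0.04 (adjusted p = 8.77e-11), and the lapatinib libraries all lay above the DMSO libraries. The smallest change of ERBB2 was in A375, at 0.43 ± 0.10, with 147, 149 and 155 CPM under vemurafenib, against 97.4, 98.9 and 143 CPM in DMSO. The highest DMSO library of A375 lay just below the lowest vemurafenib library. MIEN1 overlaps the 3′ end of ERBB2 in RefSeq, and reads in that overlap cannot be told apart without knowing how strand was used in the counting.

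A RefSeq window around a listed ERBB2 start is printed because ERBB2 moved the same way in all lines together with PGAP3. PGAP3 encodes an enzyme that remodels GPI anchors, lies on the opposite strand and has its start inside the same window. Which ERBB2 start these cells used was not tested, so the window is not assigned to ERBB2 rather than PGAP3. The window spans chr17:39687844-39688143 on the plus strand of GRCh38.p14, 250 bases before the listed start and 50 after it. Capitals mark TGATTCA, a match to TGANTCA at 222 bases before that start.
ERBB2: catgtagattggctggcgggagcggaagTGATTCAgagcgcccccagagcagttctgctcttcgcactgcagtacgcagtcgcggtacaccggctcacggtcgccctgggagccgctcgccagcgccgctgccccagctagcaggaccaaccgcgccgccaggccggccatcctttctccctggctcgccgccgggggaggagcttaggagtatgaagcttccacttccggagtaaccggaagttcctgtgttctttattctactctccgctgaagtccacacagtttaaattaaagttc
The motif TGANTCA, with any base in the middle, was searched on both strands and is present in 7.71% of 35116 promoter windows of this length. It includes the AP-1 sites TGACTCA and TGAGTCA, but the match printed here has T in the middle and is neither of these. The percentage is therefore not a share of windows with an AP-1 site. PGAP3 was called higher in 6 of 6 lines with a median log2 fold change of 0.89. It was in a list of 11 genes around ERBB2 on chromosome 17, of which 57 pairs of a gene and a line were tested, 21 called higher and 18 lower with a median of -0.04. Over all pairs 33.0% were called higher and 33.0% lower, so the list as a whole was near the share of all genes.

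EGFR fell in 3 lines and rose in 2. In A375 it had 4.35, 4.46 and 5.19 CPM under vemurafenib, against 18.8, 19.99 and 21.6 CPM in DMSO, a log2 fold change of -2.08 ± 0.12 (adjusted p = 2.27e-11). In N87 it had 143, 154 and 154 CPM under lapatinib, against 334, 339.9 and 358 CPM in DMSO, a log2 fold change of -1.21 ± 0.05 (adjusted p = 8.06e-15). Neither line had overlapping groups, and the fall in RT112 was smaller, -0.30 ± 0.03. In A549 EGFR had 454, 456 and 469.7 CPM under trametinib, against 282, 283 and 288 CPM in DMSO, a log2 fold change of 0.62 ± 0.04 (adjusted p = 8.84e-12). In PC9, whose drug targets EGFR, the change was 0.22 ± 0.03 (adjusted p = 4.79e-07), and in H3122 it was -0.06 ± 0.09 and not called (adjusted p = 0.654). The antisense gene EGFR-AS1 reached at most 1 CPM in any library, while EGFR had at least 4.35 CPM.

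**Figure D3:**
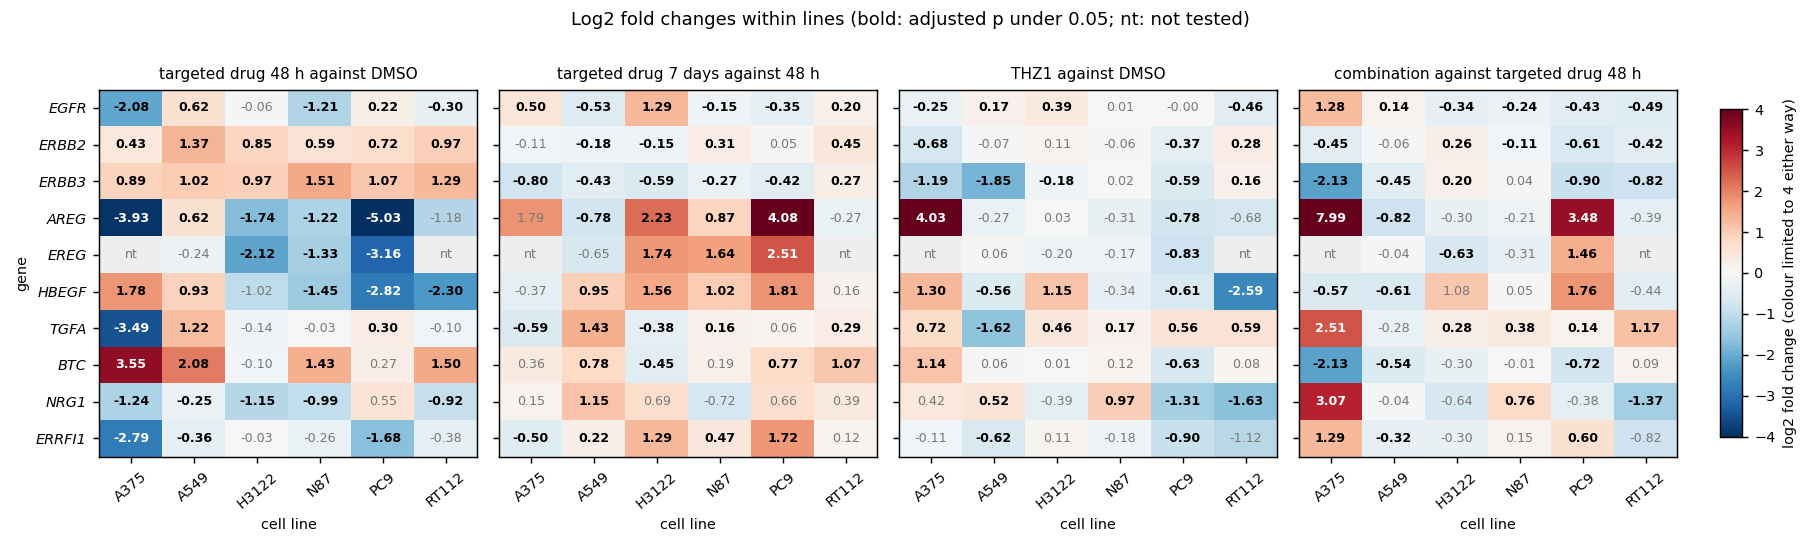
Log2 fold changes of the 10 members (rows) in the 6 lines (columns) for 4 comparisons, with called values in bold and colour limited to 4 either way. ERBB2 and ERBB3 are above 0 in all 6 lines for the targeted drug at 48 h against DMSO, and AREG has the highest value of the panels, 7.99 in A375 for the combination against the targeted drug, fitted on 2 vemurafenib counts.

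AREG and EREG, neighbouring genes for EGFR ligands, fell together in H3122, N87 and PC9. In H3122 AREG had 7.24, 7.25 and 7.32 CPM under crizotinib, against 22.4, 24.3 and 26.3 CPM in DMSO, a log2 fold change of -1.74 ± 0.17 (adjusted p = 2.19e-07). EREG there had 4.04, 4.51 and 5.85 CPM under crizotinib, against 20.6, 20.9 and 22.0 CPM in DMSO, a log2 fold change of -2.12 ± 0.16 (adjusted p = 8.81e-09). Neither gene had overlapping groups in H3122. In N87 the log2 fold changes under lapatinib were -1.22 ± 0.21 for AREG and -1.33 ± 0.28 for EREG, with adjusted p-values of 3.76e-05 and 0.000311. In PC9 AREG had 0, 0.407 and 0.729 CPM under erlotinib, against 8.26, 8.93 and 22.1 CPM in DMSO, and EREG had 0.0955, 0.305 and 0.456 CPM, against 1.5, 2.61 and 3.97 CPM. The groups did not overlap, and the log2 fold changes were -5.03 ± 0.56 for AREG and -3.16 ± 0.47 for EREG (adjusted p = 8.54e-08 and 4.37e-06). The AREG value in PC9 rests on 12.1 expected counts over the 3 erlotinib libraries, to which the near-identical copy AREGB adds 7.94. It was -4.32 with both summed, -4.43 without DMSO replicate 4 and -5.96 without erlotinib replicate 2.

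In A375 AREG was near the limit of detection in both groups. The 3 vemurafenib libraries held 2 counts in all and the 3 DMSO libraries 36, a ratio of 0.0571 with an exact 95% interval of 0.00667 to 0.222 that covers counting error only. The fitted log2 fold change of -3.93 (adjusted p = 0.00219) ran from -6.89 to -3.06 when vemurafenib replicate 1 or 4 was left out. A549 went the other way. AREG had 89.5, 94.7 and 96.7 CPM there under trametinib, against 49.7, 56.8 and 66.4 CPM in DMSO, a log2 fold change of 0.62 ± 0.12 (adjusted p = 6.85e-05), with no overlap between groups, while EREG was at -0.24 ± 0.26 and not called (adjusted p = 0.409). In RT112 AREG had 2.77, 3.80 and 24.6 CPM under BGJ398, against 20.9, 21.6 and 25.4 CPM in DMSO, and the highest BGJ398 library was replicate 1. With it the log2 fold change was -1.18 ± 0.57 and not called (adjusted p = 0.0783), and without the libraries that stood apart it was -2.74, adjusted p = 2.31e-11.

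AREG, EREG and BTC are consecutive protein-coding genes on chromosome 4 in RefSeq, next to EPGN, and their windows are printed because AREG and EREG fell in the same lines while BTC fell in none. The windows hold 250 bases before each start and 50 after it in GRCh38.p14, at chr4:74364895-74365194 (plus strand) for EREG, chr4:74444886-74445185 (plus strand) for AREG and chr4:74794474-74794773 (minus strand) for BTC. Capitals mark matches to TATAAA, to TGACGTCA or the shorter TGACG within it, to GTAAACA, which reads TGTTTAC on the opposite strand, and to GGGCGG, which there reads CCGCCC.
EREG: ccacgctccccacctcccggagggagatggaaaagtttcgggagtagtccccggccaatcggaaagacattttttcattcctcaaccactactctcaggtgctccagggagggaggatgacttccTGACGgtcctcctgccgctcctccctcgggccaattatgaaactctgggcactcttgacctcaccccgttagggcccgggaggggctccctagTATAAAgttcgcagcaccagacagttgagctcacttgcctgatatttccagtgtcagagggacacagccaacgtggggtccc
AREG: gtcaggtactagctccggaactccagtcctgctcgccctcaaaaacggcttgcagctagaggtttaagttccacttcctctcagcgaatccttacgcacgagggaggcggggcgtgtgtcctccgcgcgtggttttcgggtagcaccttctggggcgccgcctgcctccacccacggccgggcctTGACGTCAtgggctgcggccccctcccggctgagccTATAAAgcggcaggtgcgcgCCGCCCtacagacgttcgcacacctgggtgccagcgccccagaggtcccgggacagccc
BTC: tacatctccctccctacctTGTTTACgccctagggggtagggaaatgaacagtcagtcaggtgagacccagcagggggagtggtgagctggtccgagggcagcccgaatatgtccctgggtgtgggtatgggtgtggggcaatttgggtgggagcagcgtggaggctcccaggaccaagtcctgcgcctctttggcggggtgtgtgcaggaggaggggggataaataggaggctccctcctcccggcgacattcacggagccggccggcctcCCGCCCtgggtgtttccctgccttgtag
A TATAAA box starts 32 bases before the start of EREG and 29 before that of AREG, and 11.5% of the 35116 windows hold this motif. TGACGTCA, the palindromic cAMP response element, lies 65 bases before the AREG start and is present in 1.85% of windows. EREG holds the shorter TGACG, a part of that element found in 24.6% of windows, at 125 bases before its start. The BTC window has neither TATAAA nor TGACG as exact letters, and the near match GATAAA that it holds was not searched. GTAAACA, a forkhead motif found in 3.42% of windows, is there on the opposite strand at 231 bases before the start. GGGCGG, searched as well and present in 45.0% of windows, is in the AREG and BTC windows. These are matches of letters and were not tested as binding sites.

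BTC, a ligand of EGFR and ERBB4, rose in 4 lines from low levels. In A375 it had 4.61, 4.79 and 6.54 CPM under vemurafenib, against 0.306, 0.441 and 0.734 CPM in DMSO, a log2 fold change of 3.55 ± 0.35 (adjusted p = 3.51e-08). In A549 it had 5.18, 5.69 and 6.80 CPM under trametinib, against 1.09, 1.21 and 1.66 CPM in DMSO, a log2 fold change of 2.08 ± 0.24 (adjusted p = 9.98e-08). In N87 it had 8.17, 9.72 and 10.2 CPM under lapatinib, against 3.34, 3.36 and 3.59 CPM in DMSO, a log2 fold change of 1.43 ± 0.14 (adjusted p = 1.03e-08). The drug and DMSO groups of these 3 lines did not overlap. In RT112 the change was 1.5 ± 0.41 at under 1 CPM in every library (adjusted p = 0.00394), and in H3122 and PC9 it was -0.10 and 0.27 and not called.

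HBEGF, which binds EGFR and ERBB4, rose in A375 and A549 and fell in N87, PC9 and RT112. In A375 it had 15.8, 26.7 and 36.5 CPM under vemurafenib, against 6.91, 7.28 and 8.95 CPM in DMSO, a log2 fold change of 1.78 ± 0.26 (adjusted p = 7.58e-06). In PC9 it had 4.48, 6.02 and 6.11 CPM under erlotinib, against 27.8, 30.3 and 61.3 CPM in DMSO, a log2 fold change of -2.82 ± 0.29 (adjusted p = 1.98e-08). Neither line had overlapping groups. In RT112 it had 12, 12.9 and 45.5 CPM under BGJ398, against 86.4, 89.1 and 158 CPM in DMSO, where the highest value of each group was replicate 1. The log2 fold change was -2.30 ± 0.41 (adjusted p = 0.000119) with all libraries, -2.86 without those that stood apart and -3.21 without BGJ398 replicate 1. HBEGF was at 0.93 in A549 and -1.45 in N87, both called, and at -1.02 in H3122, where it was not called (adjusted p = 0.0542). The H3122 value was called without replicate 1 of the 7-day arm, the library that stood apart (-1.01, adjusted p = 0.00879), without DMSO replicate 4 (-1.27, adjusted p = 0.0267), and without 7-day replicate 3 or 4 or combination replicate 1. It was also called by DESeq2 (adjusted p = 0.0259), without a filter on low counts, with only the arms compared and with the replicate block.

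TGFA, an EGFR ligand, fell in A375 and rose in A549. In A375, where it was the leading ligand, it had 34.8, 38.4 and 38.5 CPM under vemurafenib, against 415, 417 and 424 CPM in DMSO, a log2 fold change of -3.49 ± 0.06 (adjusted p = 9.72e-19). In A549 it had 2.34, 2.59 and 3.89 CPM under trametinib, against 0.894, 1.12 and 1.55 CPM in DMSO, a log2 fold change of 1.22 ± 0.28 (adjusted p = 0.000639). Groups did not overlap in either line, TGFA in PC9 rose by 0.30, and in H3122, N87 and RT112 the changes lay between -0.14 and -0.03 and were not called. NRG1, the ERBB3 ligand, fell in 5 lines, with log2 fold changes between -0.25 in A549 and -1.24 in A375, and was at 0.55 ± 0.35 and not called in PC9. In A549, where it is most abundant, it had 27.3, 29.7 and 30.6 CPM under trametinib, against 32.1, 32.6 and 34.0 CPM in DMSO (adjusted p = 0.00186). In H3122 its fall of -1.15 was not called without crizotinib replicate 2 (-0.96, adjusted p = 0.0545).

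ERRFI1, the receptor inhibitor, fell in A375, PC9 and A549. In A375 it had 38.3, 44.5 and 50.3 CPM under vemurafenib, against 291, 299 and 328 CPM in DMSO, a log2 fold change of -2.79 ± 0.12 (adjusted p = 3.42e-13). In PC9 it had 27.6, 28.5 and 29.8 CPM under erlotinib, against 81.8, 91.7 and 104 CPM in DMSO, a log2 fold change of -1.68 ± 0.09 (adjusted p = 1.51e-12). Groups did not overlap in either line, and the fall in A549 was -0.36 ± 0.09. In RT112 it had 50.4, 52.2 and 197 CPM under BGJ398, against 95.1, 102 and 178 CPM in DMSO, with replicate 1 highest in each group. It was at -0.38 ± 0.44 with all libraries (adjusted p = 0.458) and at -0.99, adjusted p = 9.82e-13, without those that stood apart. Values in H3122 and N87 were -0.03 and -0.26 and not called.

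**Figure D4:**
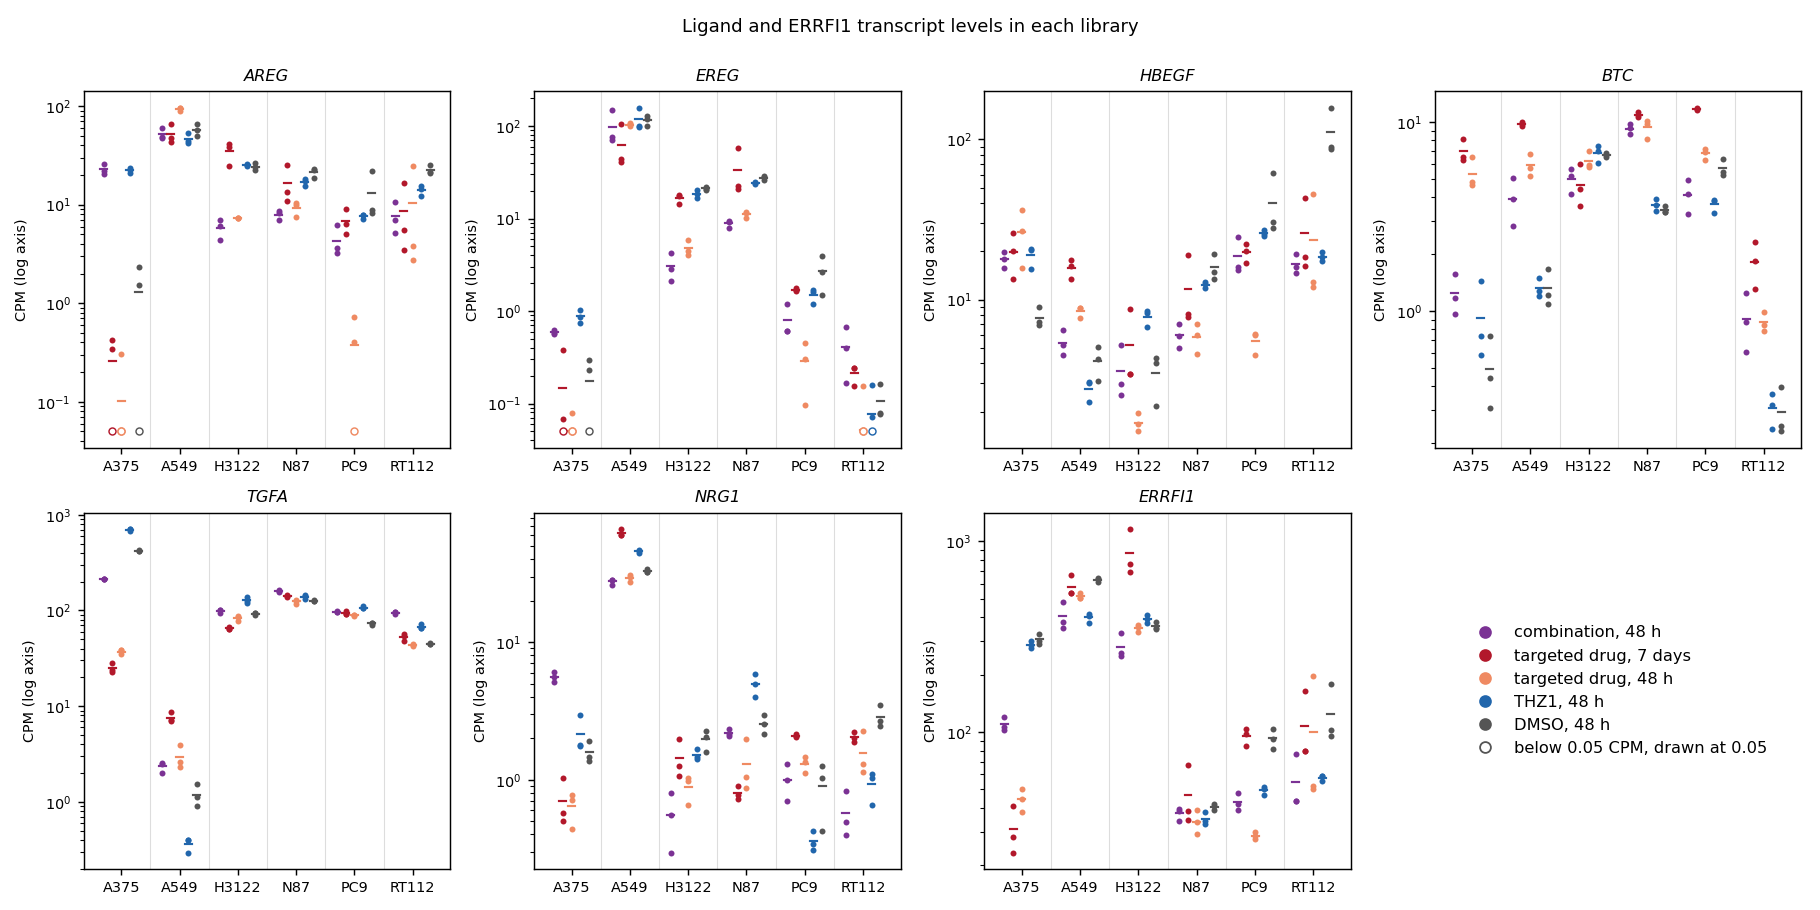
CPM (log axis) of the 6 ligands and ERRFI1 in each of the 90 libraries, by line and arm, with points for libraries and a bar for the mean of 3; open points are libraries under 0.05 CPM. In RT112 1 library of several groups lies far above the others for AREG, HBEGF and ERRFI1, such as 24.6 CPM of AREG under BGJ398 beside 2.77 and 3.80 CPM.

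Across lines, with the line as the replicate and the 3 libraries of each group summed, 3 of the 9 members tested were called for the targeted drug at 48 h against DMSO, all higher. These were ERBB3 at 1.17 ± 0.27 (adjusted p = 0.0024), ERBB2 at 0.88 ± 0.17 (adjusted p = 0.000521) and BTC at 1.36 ± 0.41 (adjusted p = 0.0126). Of 11875 genes tested across lines, 18.6% were called higher and 18.5% lower. In DMSO the highest library of BTC had 0.734 CPM in A375 and 0.395 CPM in RT112. BTC therefore passed the filter of this fit in these 2 lines only through drug arms, and its call is not independent of that filter. BTC was not called without A375 (0.96, adjusted p = 0.065) or without A549 (1.19, adjusted p = 0.0555), and EREG was not tested because it is low in A375 and RT112. The test of whether the effect differs between the 6 lines was called for all 10 members, beside 74.8% of 19655 genes. The range between lines was widest for AREG, 5.65 on the log2 scale, and narrowest for ERBB3, 0.62, followed by ERBB2 at 0.95.

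The 7-day arm was set against the 48 h arm of the same drug. AREG, EREG and HBEGF were higher at 7 days than at 48 h in H3122, N87 and PC9, and ERBB3 was lower than at 48 h in 5 lines. The HBEGF call in N87 was lost without replicate 1 of the 7-day arm. This comparison shares the 48 h libraries with the one against DMSO. Of 58 pairs, 27 were called higher and 15 lower, beside 23.8% and 24.0% of all pairs, so the share called higher was above that of all genes and the share called lower near it. Ligand pairs had 17 of 34 called higher and 4 lower, with a median log2 fold change of 0.67 beside 0 over all pairs, and receptor pairs had 6 of 18 higher and 10 lower.

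AREG in PC9 had 5.04, 6.30 and 8.99 CPM at 7 days of erlotinib, against 0, 0.407 and 0.729 CPM at 48 h, a log2 fold change of 4.08 ± 0.63 (adjusted p = 1.42e-05). Summed with AREGB the change was 3.36, and without erlotinib replicate 2 of 48 h it was 5.01. In H3122 AREG had 24.9, 38.2 and 41.1 CPM at 7 days of crizotinib, against 7.24, 7.25 and 7.32 CPM at 48 h, a log2 fold change of 2.23 ± 0.16 (adjusted p = 9.56e-10), and 2.12 without replicate 1 of the 7-day arm. The 7-day and 48 h groups did not overlap in these lines. In N87 AREG had 10.8, 13.4 and 25.4 CPM at 7 days of lapatinib, against 7.43, 9.82 and 10.5 CPM at 48 h. The log2 fold change was 0.87 ± 0.22 (adjusted p = 0.00335), and replicate 1 was the highest 7-day library, well above the others. In A549 AREG fell, with 43.1, 48.0 and 66.6 CPM at 7 days of trametinib, against 89.5, 94.7 and 96.7 CPM at 48 h, a log2 fold change of -0.78 ± 0.13 (adjusted p = 3.98e-05). RT112 was at -0.27 with all libraries (adjusted p = 0.779) and at 0.47, adjusted p = 0.141, without those that stood apart, and A375 at 1.79 from a few counts (adjusted p = 0.321).

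EREG moved with AREG in the same 3 lines. Its log2 fold changes at 7 days against 48 h were 2.51 ± 0.49 in PC9, 1.74 ± 0.16 in H3122 and 1.64 ± 0.27 in N87, with adjusted p-values of 0.00023, 2.69e-08 and 6.95e-05, and no groups overlapped. In N87 the 7-day libraries had 21.0, 22.6 and 57.6 CPM, and without replicate 1, the highest, the change was 1.01. HBEGF rose at 7 days against 48 h by 1.81 ± 0.31 in PC9, 1.56 ± 0.38 in H3122, 1.02 ± 0.27 in N87 and 0.95 ± 0.16 in A549. The same N87 replicate 1 carried the HBEGF call there, which was 0.47, adjusted p = 0.0646, without it, and H3122 was at 1.00, adjusted p = 0.00934, without its 7-day replicate 1. In RT112 HBEGF was at 0.16 with all libraries (adjusted p = 0.816) and at 0.50, adjusted p = 0.000593, without those that stood apart.

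ERRFI1 rose at 7 days against 48 h in PC9, H3122, N87 and A549 and fell in A375. In PC9 it had 84.9, 97.7 and 103 CPM at 7 days of erlotinib, against 27.6, 28.5 and 29.8 CPM at 48 h, a log2 fold change of 1.72 ± 0.09 (adjusted p = 4.25e-12). In H3122 it had 689, 756 and 1162 CPM at 7 days of crizotinib, against 333, 354 and 365 CPM at 48 h, a log2 fold change of 1.29 ± 0.14 (adjusted p = 2.02e-07), and 1.05 without the library that stood apart. The groups did not overlap in either line. The smaller rises were lost without replicate 1 of the 7-day arm, at 0.14, adjusted p = 0.27, in N87, against 0.47 with it, and at 0.10, adjusted p = 0.338, in A549, against 0.22 with it. The N87 call was also lost without lapatinib replicate 1 of 48 h, and the A549 call without trametinib replicate 2, 3 or 4 of 48 h or DMSO replicate 4. ERRFI1 in RT112 was at 0.12 (adjusted p = 0.861) with all libraries and at 0.65, adjusted p = 1.00e-08, without those that stood apart, and in A375 it was at -0.50.

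Of the receptors, ERBB3 was lower at 7 days than at 48 h, at -0.80 ± 0.06 in A375, -0.59 ± 0.05 in H3122 and, in A549, PC9 and N87, at -0.43, -0.42 and -0.27, all called, and higher in RT112 by 0.27. Log2 fold changes of ERBB2 lay between -0.18 in A549 and 0.45 in RT112, and the value in H3122 was -0.15 (adjusted p = 0.0121) with all libraries and -0.10, adjusted p = 0.0662, without the library that stood apart. EGFR in H3122 had 277, 369 and 395 CPM at 7 days of crizotinib, against 132, 140.2 and 148 CPM at 48 h, a log2 fold change of 1.29 ± 0.09 (adjusted p = 7.61e-10), the largest change of EGFR in this comparison. TGFA in A549 had 7.02, 7.10 and 8.62 CPM at 7 days of trametinib, against 2.34, 2.59 and 3.89 CPM at 48 h (log2 fold change 1.43 ± 0.23, adjusted p = 3.32e-05), and NRG1 there had 60.2, 60.4 and 66.7 CPM, against 27.3, 29.7 and 30.6 CPM (1.15 ± 0.07, adjusted p = 8.79e-12). Neither gene had overlapping groups. BTC rose at 7 days against 48 h in A549 by 0.78, PC9 by 0.77 and RT112 by 1.07, though in RT112 not without BGJ398 replicate 4 of 7 days (0.85, adjusted p = 0.0651).

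**Figure D5:**
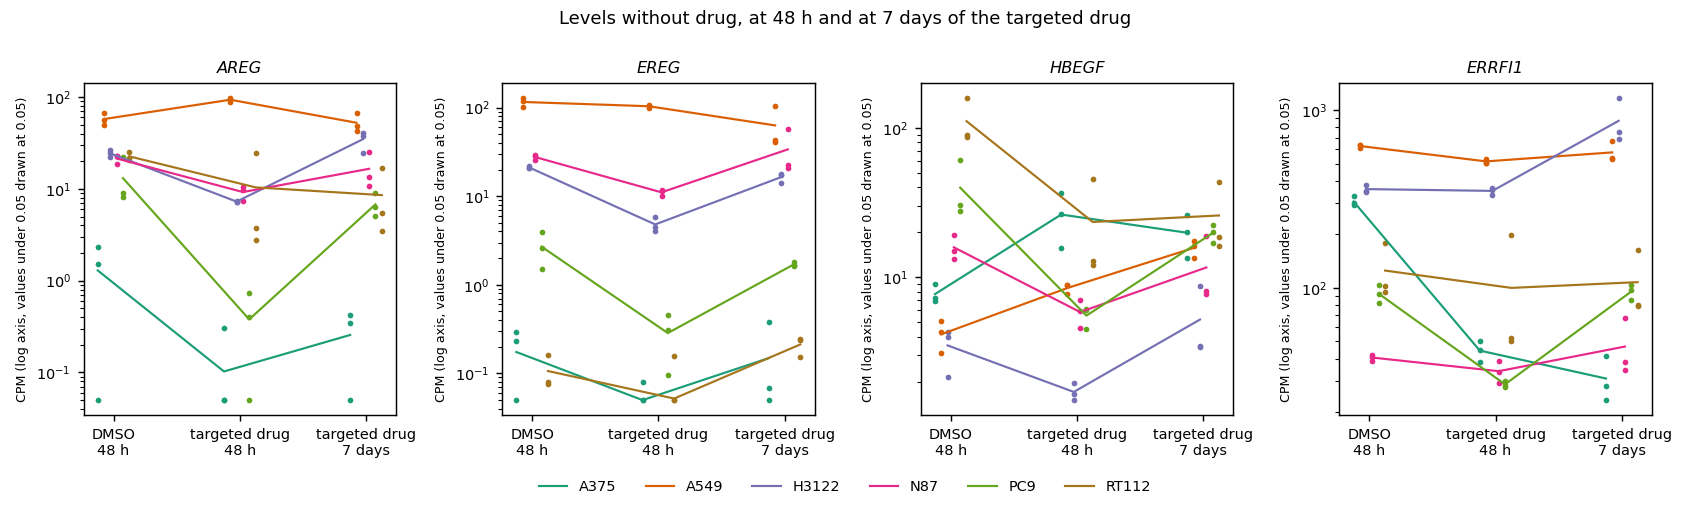
CPM (log axis) of AREG, EREG, HBEGF and ERRFI1 without drug and at 48 h and 7 days of the targeted drug, with points for libraries and lines through the means of 3 libraries for each line, values under 0.05 CPM being drawn at 0.05. In PC9 AREG lies at 8.26 to 22.1 CPM in DMSO, at 0 to 0.729 CPM at 48 h and at 5.04 to 8.99 CPM at 7 days.

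Against DMSO, the 7-day arm had 27 of 58 pairs called higher and 17 lower, beside 34.8% and 36.5% of all pairs. ERBB2 was higher in 6 of 6 lines, by 0.32 in A375 to 1.42 in RT112, and ERBB3 in 5, with 0.09 in A375 not called. The A375 call of ERBB2 was lost without DMSO replicate 3 (0.23, adjusted p = 0.0573) or 4 (0.21, adjusted p = 0.0753). BTC was higher in 5 lines, by 1.04 in PC9 to 3.91 in A375, and lower in H3122 at -0.55. The H3122 call was lost with upper-quartile scaling (-0.40, adjusted p = 0.0557) and without 7-day replicate 3 (-0.38, adjusted p = 0.0678). TGFA had its extremes here, with 22.6, 23.9 and 28.0 CPM at 7 days of vemurafenib in A375, against 415, 417 and 424 CPM in DMSO (-4.08 ± 0.06), and 7.02, 7.10 and 8.62 CPM at 7 days of trametinib in A549, against 0.894, 1.12 and 1.55 CPM in DMSO (2.65 ± 0.26). The groups of TGFA did not overlap in either line. AREG in H3122 was above its DMSO level by 0.49 ± 0.14 (adjusted p = 0.00481), while in PC9 it was at -0.95 with all libraries and at -0.35, not called, without DMSO replicate 4. EGFR in H3122 was higher by 1.24 ± 0.09 (adjusted p = 1.31e-09), and HBEGF there was at 0.55 (adjusted p = 0.173) with all libraries and at -0.01, adjusted p = 0.976, without the one that stood apart. In RT112 the values with all libraries were -1.45 for AREG, 0.19 for TGFA and -0.26 for ERRFI1 (adjusted p = 0.0363, 0.0106 and 0.61). Without the libraries that stood apart they were -2.27 for AREG, 0.13 for TGFA, which lost its call, and -0.34 for ERRFI1, which gained one (adjusted p = 1.49e-10, 0.107 and 4.42e-06).

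THZ1 alone was compared with DMSO at a dose that differed by line, so sizes are not comparable between lines. TGFA was higher in 5 lines and lower in A549, ERBB3 was lower in 4 lines, and AREG was higher in A375, where it was near 0 in DMSO. Of 58 pairs, 15 were called higher and 19 lower, beside 20.6% and 21.3% of all pairs, which puts both directions somewhat above the share of all genes. Across lines 0 of 9 members were called, beside 0.0589% of genes called higher and 0.0253% called lower by edgeR, with 1356 genes at an unadjusted p under 0.05. The effect differed between lines for 9 of 10 members, all but EREG (adjusted p = 0.482), beside 61.4% of all genes.

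ERBB3 in A549 had 29.4, 30.3 and 33.0 CPM under THZ1, against 111, 116 and 116 CPM in DMSO, a log2 fold change of -1.85 ± 0.05 (adjusted p = 1.75e-16). In A375 it had 217, 234 and 260.4 CPM under THZ1, against 527, 534 and 540.4 CPM in DMSO, a log2 fold change of -1.19 ± 0.06 (adjusted p = 2.16e-11). Groups did not overlap in these lines, the fall in PC9 was -0.59 ± 0.04, and the other values lay between -0.18 and 0.16. The calls in H3122 and RT112 were lost without 1 library, at -0.15, adjusted p = 0.1, without H3122 DMSO replicate 4 and at 0.12, adjusted p = 0.0982, without RT112 DMSO replicate 1, and also without THZ1 replicate 2 or 4 in H3122 and THZ1 replicate 3 or 4 in RT112. ERBB2 was lower in A375, at -0.68 ± 0.10, and in PC9, at -0.37 ± 0.06, and higher in RT112 by 0.28 ± 0.05. Log2 fold changes of EGFR lay between -0.46 in RT112 and 0.39 in H3122.

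TGFA under THZ1 had 673, 708 and 714 CPM in A375, against 415, 417 and 424 CPM in DMSO, a log2 fold change of 0.72 ± 0.05 (adjusted p = 1.10e-09). It rose by 0.59 in RT112, 0.56 in PC9, 0.46 in H3122 and 0.17 in N87, the last not called without THZ1 replicate 2 (0.14, adjusted p = 0.0687). In A549, with the lowest TGFA of the lines, it had 0.295, 0.399 and 0.401 CPM under THZ1, against 0.894, 1.12 and 1.55 CPM in DMSO (-1.62 ± 0.42, adjusted p = 0.00318). No groups overlapped in A375 or A549. AREG in A375 had 21.1, 22.3 and 23.6 CPM under THZ1, against 0, 1.53 and 2.35 CPM in DMSO, 625 counts against 36 and a ratio of 16.8 with an exact 95% interval of 12 to 24.2. The fitted log2 fold change was 4.03 ± 0.32 (adjusted p = 5.98e-09). AREG passed the filter on low counts in A375 only through the THZ1 and combination libraries, where it was high, so this call is not independent of the filter. In PC9 the THZ1 calls of AREG, EREG and HBEGF, at -0.78, -0.83 and -0.61, were lost without DMSO replicate 4, the highest DMSO library for these genes, at -0.17, adjusted p = 0.575, for AREG, -0.44, adjusted p = 0.301, for EREG and -0.16, adjusted p = 0.36, for HBEGF. Leaving out THZ1 replicate 2 or 3 also ended all 3 calls, THZ1 replicate 4 those of AREG and EREG, and DMSO replicate 2 that of EREG.

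HBEGF in RT112 had 17.3, 18.4 and 19.7 CPM under THZ1, against 86.4, 89.1 and 158 CPM in DMSO, a log2 fold change of -2.59 ± 0.42 (adjusted p = 0.00014) and -2.25 without the libraries that stood apart. The groups did not overlap. HBEGF went the other way in A375, at 1.30 ± 0.27 (adjusted p = 0.000485), and in H3122, at 1.15 (adjusted p = 0.0203), where the call was lost without DMSO replicate 4 (0.89, adjusted p = 0.106) or THZ1 replicate 1 or 2. AREG in RT112 was at -0.68 with all libraries (adjusted p = 0.357) and at -0.59, adjusted p = 0.000713, without those that stood apart. NRG1 fell in RT112, at -1.63 ± 0.30, and in PC9, at -1.31, and rose in N87 by 0.97 ± 0.23 and in A549 by 0.52 ± 0.06. The PC9 call was lost with DESeq2 (adjusted p = 0.0506) and without DMSO replicate 3 (-1.0, adjusted p = 0.103) or 4 or THZ1 replicate 4. ERRFI1 fell in PC9, at -0.90 ± 0.09, and in A549, at -0.62 ± 0.09. Its lowest value was in RT112, with 55.1, 58.5 and 59.0 CPM under THZ1, against 95.1, 102 and 178 CPM in DMSO. That was a log2 fold change of -1.12, not called (adjusted p = 0.0582), with all libraries and -0.78, adjusted p = 4.59e-11, without DMSO replicate 1 and the other RT112 libraries that stood apart.

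The combination was compared with the targeted drug alone at 48 h to ask what THZ1 adds. ERBB3 and ERBB2 were each lower in 4 lines, TGFA was higher in 5, and AREG was higher in A375 and PC9, the lines where the targeted drug had lowered it most, a comparison that shares the targeted libraries. Of 58 pairs, 17 were called higher and 21 lower, beside 27.5% and 27.4% of all pairs, close to the share of all genes for higher calls and above it for lower ones. Receptor pairs had 4 of 18 higher and 12 lower, with a median log2 fold change of -0.38 beside 0.01 over all pairs. Across lines 0 of 9 members were called by edgeR, beside 3.70% of genes higher and 4.34% lower and 2904 genes at an unadjusted p under 0.05. The effect differed between lines for 9 of 10 members, all but EREG (adjusted p = 0.11), beside 73.8% of all genes.

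ERBB3 in A375 had 206, 239 and 241 CPM in the combination, against 974, 993 and 995 CPM under vemurafenib alone, a log2 fold change of -2.13 ± 0.06 (adjusted p = 1.11e-15). In PC9 it had 147, 148 and 154 CPM in the combination, against 279.6, 282 and 285 CPM under erlotinib, a log2 fold change of -0.90 ± 0.04 (adjusted p = 1.21e-14). It was lower in RT112, at -0.82, and in A549, at -0.45, slightly higher in H3122 at 0.20, and not called in N87 at 0.04. In the 4 lines where it was lower, no combination library reached the lowest library of the targeted drug. ERBB2 was lower, at -0.61 in PC9, -0.45 in A375, -0.42 in RT112 and -0.11 in N87, the last lost without combination replicate 2 (-0.09, adjusted p = 0.124) or lapatinib replicate 1, and higher by 0.26 in H3122. EGFR in A375 had 10.8, 11.9 and 12.2 CPM in the combination, against 4.35, 4.46 and 5.19 CPM under vemurafenib, a log2 fold change of 1.28 ± 0.13 (adjusted p = 4.11e-08), and in the other 5 lines the log2 fold changes of EGFR lay between -0.49 in RT112 and 0.14 in A549.

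AREG in A375 had 20.5, 22.2 and 25.9 CPM in the combination, against 0, 0 and 0.308 CPM under vemurafenib. The libraries held 929 counts in the combination and 2 under vemurafenib, a ratio of 295 with an exact 95% interval of 81.4 to 2440. The fitted log2 fold change of 7.99 was 10.94 without vemurafenib replicate 1 and 7.13 without vemurafenib replicate 4. Here, too, the gene passed the filter only through the libraries with THZ1. In PC9 AREG had 3.21, 3.59 and 6.18 CPM in the combination, against 0, 0.407 and 0.729 CPM under erlotinib, a log2 fold change of 3.48 ± 0.70 (adjusted p = 0.00018), 2.76 with AREGB summed and 4.40 without erlotinib replicate 2. The groups did not overlap in these lines, and in A549 AREG was lower in the combination, at -0.82 ± 0.12 (adjusted p = 1.22e-05). In RT112 AREG and HBEGF were at -0.39 and -0.44 with all libraries (adjusted p = 0.611 and 0.434), and without the libraries that stood apart at 0.91 and 0.34 (adjusted p = 0.00163 and 0.00861). HBEGF in PC9 had 15.3, 16.0 and 24.6 CPM in the combination, against 4.48, 6.02 and 6.11 CPM under erlotinib, a log2 fold change of 1.76 ± 0.32 (adjusted p = 6.11e-05).

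TGFA in A375 had 214, 214 and 216 CPM in the combination, against 34.8, 38.4 and 38.5 CPM under vemurafenib, a log2 fold change of 2.51 ± 0.06 (adjusted p = 8.11e-17). In RT112 it had 91.5, 95.8 and 96.3 CPM in the combination, against 43.0, 43.3 and 44.4 CPM under BGJ398, a log2 fold change of 1.17 ± 0.06 (adjusted p = 8.93e-11). Groups did not overlap in either line, and the rises in N87, H3122 and PC9 were 0.38, 0.28 and 0.14. BTC was lower in the combination in A375, with 0.968, 1.17 and 1.58 CPM in the combination, against 4.61, 4.79 and 6.54 CPM under vemurafenib (-2.13 ± 0.26, adjusted p = 7.29e-07). It was also lower in PC9, at -0.72, and in A549, at -0.54, where the call was lost without combination replicate 2 (-0.36, adjusted p = 0.17) or 1 or trametinib replicate 2 or 4. NRG1 in A375 had 5.17, 5.59 and 6.05 CPM in the combination, against 0.435, 0.718 and 0.769 CPM under vemurafenib, a log2 fold change of 3.07 ± 0.30 (adjusted p = 3.69e-08), with no overlap. NRG1 in RT112 was lower, at -1.37, with all libraries (adjusted p = 0.00339) and not called at -0.83, adjusted p = 0.11, without those that stood apart. ERRFI1 was higher in A375 by 1.29 ± 0.13 and in PC9 by 0.60 ± 0.10. In RT112 it was at -0.82 with all libraries (adjusted p = 0.126) and at -0.20, adjusted p = 0.00749, without those that stood apart. In H3122 HBEGF and ERRFI1 were at 1.08 and -0.30 with all libraries (adjusted p = 0.0565 and 0.114) and at 1.06 and -0.32 without the one that stood apart (adjusted p = 0.00918 and 0.00303).

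Set against THZ1 alone, the combination shows what the targeted drug adds when THZ1 is present. ERBB2 was higher in 6 of 6 lines, by 0.27 in RT112 to 1.39 in A549, and ERBB3 in 5, by 0.31 in RT112 to 2.41 in A549, with -0.05 in A375 not called. Of 58 pairs, 21 were called higher and 19 lower, beside 28.6% and 29.0% of all pairs. ERBB3 in A549 had 171, 172 and 181 CPM in the combination, against 29.4, 30.3 and 33.0 CPM under THZ1 alone (adjusted p = 1.86e-19). AREG and EREG were lower in H3122, at -2.06 ± 0.18 and -2.55 ± 0.18, and in N87, at -1.12 ± 0.23 and -1.47 ± 0.30, all called. AREG in A375 had 20.5, 22.2 and 25.9 CPM in the combination and 21.1, 22.3 and 23.6 CPM under THZ1 alone, and the groups overlapped. In RT112 AREG, HBEGF and ERRFI1 were at -0.89, -0.15 and -0.08 with all libraries (adjusted p = 0.245, 0.819 and 0.902), and without those that stood apart at -1.24, -0.28 and -0.41 (adjusted p = 1.38e-06, 0.0113 and 2.21e-06). BTC in H3122 was at -0.42 (adjusted p = 0.0678) with all libraries and at -0.44, adjusted p = 0.0244, without the one that stood apart.

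Against DMSO, the combination had 21 of 58 pairs called higher and 25 lower, beside 32.3% and 33.0% of all pairs. EGFR was lower in 5 lines, between -0.20 in PC9 and -1.44 in N87, and higher in A549 at 0.76. ERBB2 was higher in 4 lines, with A375 at -0.03 and PC9 at 0.10 not called, and ERBB3 was higher in 5 and lower in A375 at -1.24. In H3122 BTC and ERRFI1 were at -0.40 and -0.33 with all libraries (adjusted p = 0.0776 and 0.0564) and at -0.42 and -0.35 without the one that stood apart (adjusted p = 0.0318 and 0.000882). The interaction, the difference between the effect of THZ1 with the targeted drug and its effect without it, was called for 15 pairs above 0 and 13 below, beside 17.7% and 16.8% of all pairs. For AREG in PC9 it was 4.26 ± 0.76 (adjusted p = 0.000123), and 3.53 with AREGB summed, 3.65 without DMSO replicate 4 and 5.18 without erlotinib replicate 2. For BTC in A375 it was -3.27 ± 0.53 (adjusted p = 4.10e-05), and -2.66 without THZ1 replicate 4. For ERBB3 it was -0.94 ± 0.09 in A375, -0.98 ± 0.07 in RT112 and 1.40 ± 0.06 in A549, all called. For ERBB2 it was called in RT112 at -0.70 ± 0.07 and PC9 at -0.25 ± 0.08, both below 0. The comparisons within a line share libraries, so their values stand side by side and not as separate evidence.

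Across lines, 7 days against 48 h gave 0 of 9 members called by edgeR, beside 0% higher and 0% lower of 11875 genes, with 761 at an unadjusted p under 0.05, and DESeq2 called 0 members as well. For THZ1 against DMSO and the combination against the targeted drug DESeq2 also called 0 members. The change from 48 h to 7 days differed between lines for all 10 members, beside 71.6% of all genes.

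Other genes of the pathway were read from lists chosen with earlier results of these data known. Of the other ERBB ligands and receptors (ERBB4, EGF, EPGN, NRG2, NRG3 and NRG4), 18 pairs of a gene and a line were tested for the targeted drug at 48 h against DMSO, 7 were called higher and 4 lower, with a median log2 fold change of 0.20. Over all genes 33.0% of pairs were called higher and 33.0% lower in this comparison, with a median of 0.02, and the counts of the lists stand beside these shares. NRG4, an ERBB4 ligand, was higher in 3 lines, at 1.56 in RT112, 0.93 in N87 and 0.68 in A549. Of the sheddases and their iRhom partners, 47 pairs gave 19 higher and 19 lower with a median of -0.05. RHBDF1, an iRhom that brings ADAM17 to the cell surface, was higher in 5 lines with a median of 0.76, and ADAM8 was higher in 4 lines and lower in 2, at -1.61 in H3122.

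Of a list of 15 genes drawn up as negative regulators of the receptors, 87 pairs gave 25 higher and 39 lower. Over all pairs 33.0% were called in each direction, and the median of the list was -0.12. UBASH3B is a phosphatase that binds the ubiquitin ligase CBL and slows receptor breakdown. It was lower in 6 of 6 lines, between -0.44 in H3122 and -3.20 in PC9. As that role is the opposite of negative regulation, the lower calls of the list are not a count of lowered inhibitors. CBLB, a ubiquitin ligase of the CBL family, was higher in 5 lines with a median of 0.90. At 7 days UBASH3B remained below DMSO in 6 of 6 lines with a median of -2.0. Of 14 adaptors, 84 pairs gave 45 higher and 19 lower with a median of 0.16, beside 0.02 over all pairs. GAB2, a docking protein for PI3 kinase and SHP2, was higher in 5 lines with a median of 1.86 and at 0.05 in H3122, and PIK3R1, the regulatory subunit of PI3 kinase, was higher in 5 lines with a median of 0.77. In the combination against the targeted drug PIK3R1 was lower in 5 lines with a median of -0.55, and PGAP3 beside ERBB2 was lower in 5 lines with a median of -0.70. Under THZ1 alone RNF41, a ubiquitin ligase that acts on ERBB3, was lower in 5 lines with a median of -0.40, and LRIG1, a membrane protein that restrains ERBB receptors, in 4 with a median of -0.42.

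Genes whose pattern was most like that of a member were taken by Pearson's r over the 30 group means of log2 CPM after each line's own mean was removed, as a description over groups that share lines and arms. For ERBB2 these were MXD4 (r = 0.934) and IL17RC (r = 0.932), and for ERBB3 they were FOXO3 (r = 0.916) and PAQR6 (r = 0.915). For EGFR they were TESC (r = 0.818) and TBL1X (r = 0.789), for AREG TNFSF9 (r = 0.858) and PTP4A1 (r = 0.829), and for TGFA DYNLT3 (r = 0.92) and CDCP1 (r = 0.913). For HBEGF they were FHOD3 (r = 0.738) and GJB2 (r = 0.730), for BTC GORASP1 (r = 0.932) and FOSL2 (r = 0.917), for NRG1 TPST1 (r = 0.804) and RDH13 (r = 0.787), and for ERRFI1 KIF21B (r = 0.842) and MAP3K5 (r = 0.827). Among the members themselves r was 0.86 for ERBB2 with ERBB3, 0.76 for AREG with EREG, 0.73 for ERBB2 with BTC and -0.60 for ERBB3 with AREG.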

How the data were processed

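The deposited gene table holds expected counts, which the authors made with RSEM 1.2.12 and Bowtie2 2.2.1 on hg19, per the submitters' processing notes; between 7.83% and 13.75% of a library's values were not whole numbers. Per the labels' protocols, the kits were RNeasy micro for the RNA and NEBNext Ultra RNA for the libraries. Strand use and the gene annotation are not given in the sources used here. Of 53893 identifiers 47111 had a symbol. The 10 members and all gene lists were chosen with earlier results of these data known.

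Expected counts were rounded and tested with edgeR 4.0.16 (quasi-likelihood test, TMM scaling, filterByExpr) in R 4.3.3, per line with 15 libraries and 14810 to 16106 genes. Across lines, the 3 libraries of each group were summed, and the line was a covariate in a fit of 11875 genes, those that reached 1 CPM in 3 or more of each line's libraries. A fit of all 90 libraries tested whether an effect differed between lines. P-values were adjusted with Benjamini-Hochberg over all genes of a fit, the threshold was 0.05, and SEs were derived from the log2 fold change and its F statistic. EREG was tested in 4 lines, and all other members in 6. The filters count libraries of any arm. AREG in A375 and BTC in A375 and RT112 passed them only through arms in which they were higher than in DMSO. TMM factors ran from 0.828 to 1.218. Tables and plots were made with Python 3.11.15, pandas 2.3.3, numpy 2.4.6 and matplotlib 3.10.9. Low counts limit precision for AREG, EREG, BTC and NRG1 in the lines where these genes are low, and the intervals of count ratios cover counting error only.

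Besides the members, the 2 genes of each list with the largest absolute median change among those called the same way in at least 3 lines could be named for each comparison, and the 2 genes most like each member tested in all 6 lines. Promoter windows came from RefSeq (GRCh38.p14) for 8 of 10 members, and transcript lengths from GENCODE v29. Libraries with the same replicate number were compared as possible pairs by the correlations of their deviations from the group means, which ran from -0.076 to 0.237. In the 16 pairs of arms with 3 shared numbers they ran from -0.044 to 0.068. In 0 of these 16 was every correlation above 0.1, so libraries were not treated as pairs. That rule did not cover arms with 2 shared numbers. Among those, replicate 1 of RT112 gave 0.237 for DMSO with BGJ398 at 48 h, 0.178 for 48 h with 7 days and 0.119 for DMSO with 7 days. No libraries of a group agreed within sampling noise, the lowest chi-square per gene being 1.46. On simulated data 97% of genes changed 0.5-fold and 100% of genes changed 2-fold were recovered within A375 at 48 h, of 100 each. The simulation used a single fixed spread rather than that of these libraries, and changed only genes with ample counts in every line. It therefore gives no recovery rate for members with low counts. Alternatives were DESeq2 1.42.0, upper-quartile scaling, no filter on low counts, only the arms compared, a replicate block, each library or line left out, the libraries that stood apart left out, and, chosen after seeing the data, AREG summed with AREGB.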

Additional observations from a re-analysis of the deposited data

Results flagged for a closer look

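The effect of a drug differed between lines for most members, by edgeR's test of that difference in the fit of all 90 libraries with p adjusted over 19655 genes. The sizes here are the gap between the highest and the lowest log2 fold change over the lines, each line having its own drug, and for THZ1 its own dose. As 61.4% to 74.8% of all genes differed between lines in the same tests, the share among members is set against a high background. For EGFR the gap was 2.70 for the targeted drug at 48 h against DMSO, 0.85 for THZ1 against DMSO, 1.77 for the combination against the targeted drug and 1.82 for 7 days against 48 h. Its widest gap lay between A549 at 0.62 and A375 at -2.08 for the targeted drug at 48 h against DMSO (adjusted p = 6.28e-37). The gap of ERBB2 was 0.95 for the targeted drug at 48 h against DMSO, 0.96 for THZ1 against DMSO, 0.87 for the combination against the targeted drug and 0.63 for 7 days against 48 h. At the widest it ran between RT112 at 0.28 and A375 at -0.68 for THZ1 against DMSO (adjusted p = 9.74e-13). ERBB3 had a gap of 0.62 for the targeted drug at 48 h against DMSO, 2.01 for THZ1 against DMSO, 2.32 for the combination against the targeted drug and 1.06 for 7 days against 48 h. The extremes were H3122 at 0.20 and A375 at -2.13 for the combination against the targeted drug (adjusted p = 1.21e-42). AREG, in part from very low counts in A375 and PC9, had a gap of 5.65 for the targeted drug at 48 h against DMSO, 4.81 for THZ1 against DMSO, 8.81 for the combination against the targeted drug and 4.86 for 7 days against 48 h. The most distant lines were A375 at 7.99 and A549 at -0.82 for the combination against the targeted drug (adjusted p = 6.13e-12). The A375 value rests on 2 vemurafenib counts and was 10.94 without vemurafenib replicate 1 and 7.13 without vemurafenib replicate 4, and the gap moves with it. Over the 4 lines where it was tested EREG had a gap of 2.92 for the targeted drug at 48 h against DMSO and 3.17 for 7 days against 48 h. Its widest gap lay between PC9 at 2.51 and A549 at -0.65 for 7 days against 48 h (adjusted p = 3.14e-09).

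TGFA spread over 4.71 for the targeted drug at 48 h against DMSO, 2.34 for THZ1 against DMSO, 2.79 for the combination against the targeted drug and 2.02 for 7 days against 48 h. At the widest it ran between A549 at 1.22 and A375 at -3.49 for the targeted drug at 48 h against DMSO (adjusted p = 1.28e-52). For HBEGF the lines were apart by 4.60 for the targeted drug at 48 h against DMSO, 3.89 for THZ1 against DMSO, 2.37 for the combination against the targeted drug and 2.19 for 7 days against 48 h. The extremes were A375 at 1.78 and PC9 at -2.82 for the targeted drug at 48 h against DMSO (adjusted p = 3.05e-13). BTC spread over 3.64 for the targeted drug at 48 h against DMSO, 1.77 for THZ1 against DMSO, 2.22 for the combination against the targeted drug and 1.52 for 7 days against 48 h. The most distant lines were A375 at 3.55 and H3122 at -0.10 for the targeted drug at 48 h against DMSO (adjusted p = 3.82e-17). NRG1 had a gap of 1.78 for the targeted drug at 48 h against DMSO, 2.60 for THZ1 against DMSO, 4.44 for the combination against the targeted drug and 1.87 for 7 days against 48 h. Its widest gap lay between A375 at 3.07 and RT112 at -1.37 for the combination against the targeted drug (adjusted p = 2.51e-16), the RT112 value being -0.83 without the libraries that stood apart. The inhibitor ERRFI1 had a gap of 2.76 for the targeted drug at 48 h against DMSO, 1.23 for THZ1 against DMSO, 2.12 for the combination against the targeted drug and 2.22 for 7 days against 48 h. At the widest it ran between H3122 at -0.03 and A375 at -2.79 for the targeted drug at 48 h against DMSO (adjusted p = 6.52e-11). The lowest values of ERRFI1 for THZ1 and for the combination, -1.12 and -0.82 in RT112, were -0.78 and -0.20 without the libraries that stood apart.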

How the results depend on the processing

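No count of called members moved by more than 1.5 times under any setting run. For the targeted drug at 48 h against DMSO 45 pairs of a member and a line were called, 45 to 50 over the settings and 44 to 47 with 1 library left out. The same 3 figures were 34, 27 to 37 and 30 to 35 for THZ1, 38, 36 to 42 and 36 to 40 for the combination against the targeted drug, and 42, 37 to 44 and 39 to 45 for 7 days against 48 h. Across lines the 48 h count was 3, and 2 to 4 over the settings; the others were 0 throughout. The replicate block, for libraries that share only a number, gave 49, 36, 39 and 44 called pairs for those 4 comparisons, 45 for the combination against THZ1, 50 for it against DMSO, 45 for 7 days against DMSO and 28 for the interaction. Of 320 called member values, 21 lost their call with DESeq2, 14 without a filter on low counts, 7 with upper-quartile scaling, 11 of 309 with only the arms compared and 5 of 317 with the block, 48 lost it without at least 1 library, and 0 reversed. Upper-quartile scaling moved the median of all genes by more than 0.1 (log2) in 7 of 56 cases, at most 0.152 in N87 for the targeted drug at 48 h. Some values that were not called turned round. Without the libraries that stood apart HBEGF in H3122 for 7 days against DMSO was -0.01, against 0.55 with all, and BTC in RT112 under THZ1 was -0.07, against 0.08. In RT112, without the libraries that stood apart, AREG and HBEGF for the combination against the targeted drug were 0.91 and 0.34, and AREG for 7 days against 48 h was 0.47. With 1 library left out, AREG and HBEGF for the combination ran from -0.85 to 1.25 and from -0.76 to 0.47, and AREG, HBEGF and ERRFI1 for 7 days against 48 h from -1.19 to 1.38, from -0.41 to 1.07 and from -0.31 to 1.08; the cause was not tested. Depth limits AREG in A375 and PC9, where single libraries of the targeted drug held 0 counts.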

Other observations

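AREGB, a near-identical copy of AREG, took 39.7% of the summed expected counts of both under erlotinib at 48 h in PC9, 26.4% at 7 days of vemurafenib in A375 and 18.0% in DMSO in A375, groups in which AREG itself was low. In the other groups its share was at most 0.97%. The ligand mix of the combination differed from that of the targeted drug alone in A375. By length-scaled level, TGFA made up 64.5% of the 6 ligands in the A375 combination, against 39.7% under vemurafenib alone, and AREG made up 23.9%, against 0.378%. With the median in place of the longest transcript length, TGFA made up 85.7% in the combination, against 64.6% under vemurafenib, and AREG 7.76%, against 0.152%.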
